A study of Mus musculus with 34 samples.

Results

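The state of the distal colon 7 days after a second rectal dose of the hapten trinitrobenzene sulfonic acid (TNBS) was compared with that of healthy colon. The comparison held the 5 arrays labelled TNBS colitis day 21 and the 4 arrays labelled Healthy Control, 9 of the 34 arrays in the time course. It covered the 21110 of 25697 probes whose signal lay above 5 on at least 4 of the 34 arrays, and these probes stood for 14010 named genes. Each array measured the RNA of 1 mouse on a 1-colour Illumina mouse bead array, and all mice were female BALB/c animals. The day 21 mice had been sensitised on the skin with TNBS in ethanol and had then received rectal TNBS in ethanol on days 7 and 14, at 0.75 and 1.5 mg, and the colon was taken on day 21. The labels give the healthy mice no treatment and no day, and the methods do not say whether these mice were sensitised or given ethanol. The hapten, its vehicle, the handling and the date and age at sampling therefore cannot be told apart here. Further groups of 5 TNBS mice each entered direct comparisons: day 14, which is 7 days after the first rectal dose, day 16, which is 2 days after the second, and day 28, which is 7 days after the third. Whole tissue was extracted, so fewer cells of a type and less RNA per cell cannot be told apart in any value given here.

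Rectal ethanol breaks the mucosal barrier, and TNBS that enters the wall binds to tissue proteins and makes them targets of a T cell response. After such an injury the epithelium is rebuilt from dividing cells at the base of the crypts, which must license their replication origins and supply nucleotides and sterols for new cells. Mucosal mast cells enter the gut as immature progenitors from the blood, mature in the tissue and store large amounts of proteases, and goblet and other secretory cells of the epithelium release lectins and antimicrobial proteins into the lumen.

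Between 49.96% and 52.3% of probes per array lay above background, taken as the 95th percentile of the olfactory, vomeronasal and trace amine receptor probes of the same array. Of the defining markers of distal colon, Aqp8, a water channel, measured 11.91 to 12.42 in day 21 mice and 11.77 to 12.72 in healthy mice, and Hoxd13, a homeobox gene of the hindgut, 7.33 to 8.41 in day 21 mice and 7.52 to 8.42 in healthy mice (log2 signal). Krt20, a keratin of surface epithelium, was detected on every array. The chloride exchanger Slc26a3 was low in both groups, and Hoxb13 was above background on 0 day 21 arrays and 1 healthy array.

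Several mice stood apart in markers of other tissues or cells. The list of 13 exocrine pancreas genes lay 9.18 log2 units above the healthy mean in day 21 mouse 2 and 7.10 above it in day 21 mouse 3, against 0.02 to 0.35 in the other day 21 mice and 0.00 to 0.13 in healthy mice (median over the list). Pancreatic trypsin 4, Try4, measured 13.31 and 11.63 log2 signal in those mice and stood at the floor of 2.32 in the other 7. Skeletal muscle markers lay 3.92 above the healthy mean in day 21 mouse 5, whose skeletal actin Acta1 measured 12.14. Neutrophil markers lay 2.97 above it in day 21 mouse 3. B cell markers lay 2.12 below it in day 21 mouse 5 and 1.01 above it in healthy mouse 4. Adipocyte markers lay 1.06 and 1.27 above it in day 21 mice 1 and 5 and 1.06 below it in day 21 mouse 4. Counts over several gene lists, and examples of genes that lost their call, are therefore also given without day 21 mice 2 and 3, and some counts without mouse 5 as well. The part of these mixed tissues in the results was not tested.

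**Figure D1:**
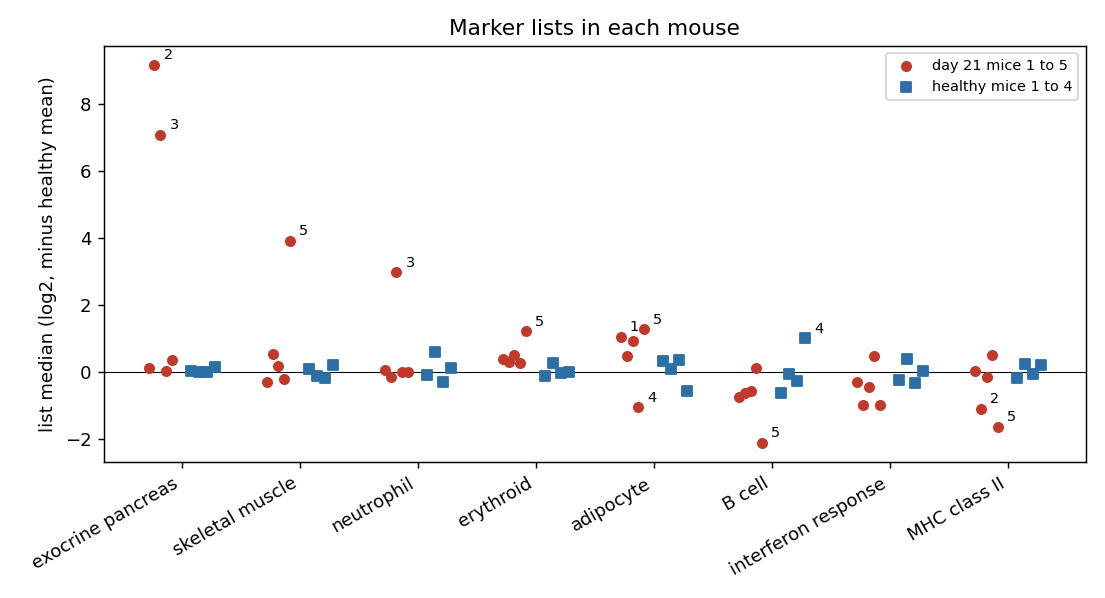
Median over the members of 8 marker lists in each mouse, as log2 signal minus the healthy mean of each gene, for the 5 day 21 mice (left) and the 4 healthy mice (right) of each panel. Numbers mark mice over 1 log2 unit from 0: exocrine pancreas genes reach 9.18 and 7.10 in day 21 mice 2 and 3, and skeletal muscle genes 3.92 in day 21 mouse 5.

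Of the 21110 probes tested, 69 were higher on day 21 than in healthy mice (0.327%) and 79 were lower (0.374%) by limma at an adjusted p of 0.05, and 2460 had an unadjusted p under that value. With the brightest probe standing for each gene, 52 genes were higher (0.371%) and 63 were lower (0.450%). The higher genes had a median log2 change of 1.08 and the lower ones of -0.83, and 27 of the higher and 23 of the lower genes changed over 2-fold. All 5 day 21 mice lay above all 4 healthy mice in 389 genes (2.78%) and below them in 394 (2.81%). This was so for 45 of the 52 higher and 48 of the 63 lower genes. These counts use floored values, so an order among values in the background also counts. Of the 115 changed genes, 93 were above background on all 9 arrays. The higher genes were led by mast cell proteases and epithelial secretory products, and the lower genes by replication, sterol and clock genes. The median change over all genes tested was 0.00. The counts fell to 25 probes higher and 15 lower without day 21 mice 2 and 3, which carried the pancreatic signal, and to 20 higher and 1 lower when day 21 mouse 5 was left out as well.

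**Figure D2:**
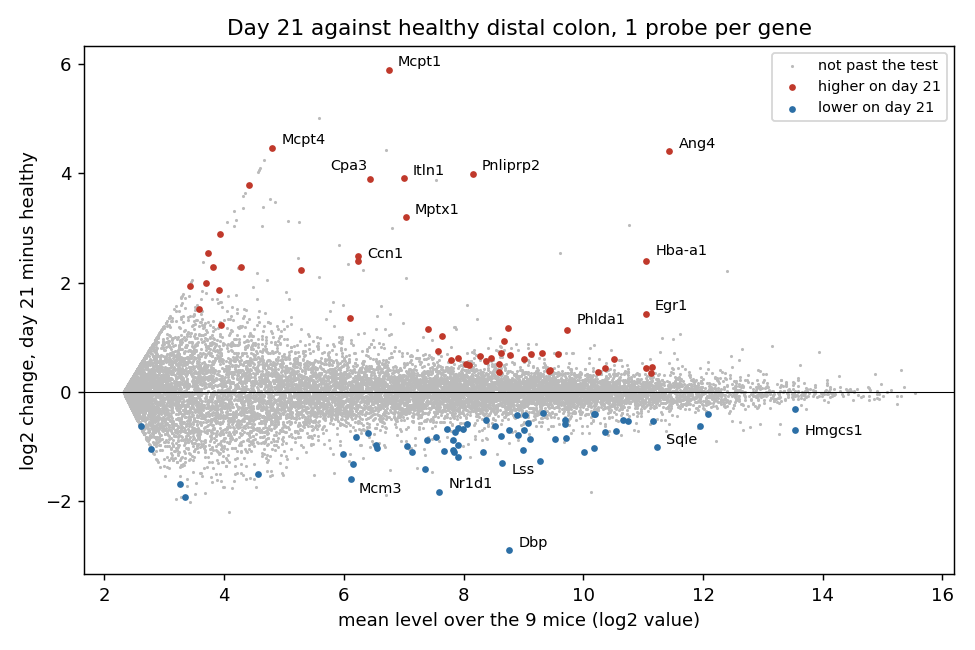
Log2 change (day 21 minus healthy) of each of 14010 genes against its mean log2 signal over the 9 mice, 1 probe per gene. The 52 genes higher on day 21 are in red and the 63 lower genes in blue. The largest rise is that of Mcpt1, at 5.89, and the largest fall that of Dbp, at -2.89.

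The largest rise of a single gene was that of Mcpt1, a gene of mucosal mast cells. Of 15 mast cell genes tested, 7 were higher on day 21 than in healthy mice and 0 were lower, against 0.371% of all genes higher. In 9 of them all day 21 mice lay above all healthy mice, against 2.78% of all genes. Cma2 is among the 9 through day 21 mouse 5 at 2.48, a background value just above the floor of 2.32. The median change was 1.65, or 1.21 when each gene absent above background in 1 group is placed at its lower bound. The study itself drew attention to mast cell genes in these samples, so that the list is not independent of them. It also reported more mast cells in affected colon by toluidine blue staining, and those cell counts are not part of the values here. Mcpt1, a chymase of mucosal mast cells, measured 9.80, 9.52, 9.12, 10.65 and 7.73 log2 signal in day 21 mice 1 to 5 and 5.34, 3.78, 2.47 and 2.32 in healthy mice 1 to 4. Every day 21 mouse lay far above the highest healthy mouse, and only 1 healthy mouse was above background. The log2 change was 5.89 ± 0.75 (SE, limma adjusted p = 0.000222), and no fold is given because the other 3 healthy values lay in the background. Mcpt4, another mast cell chymase, measured 7.05, 6.47, 6.51, 7.65 and 6.26 in day 21 mice and stood at the floor of 2.32 in all 4 healthy mice. Its rise was at least 4.32-fold, with the healthy mice set to the lowest signal above background (adjusted p = 0.00172). With a floor of 20 in place of 5 its change was 2.47 and did not pass (adjusted p = 0.0853).

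Cpa3, the carboxypeptidase of mast cell granules, measured 8.43, 8.04, 7.88, 8.79 and 7.69 in day 21 mice and 3.80, 4.55, 4.47 and 4.27 in healthy mice (log2 signal). With this probe no healthy mouse was above background and the groups did not overlap, which gave a rise of at least 11.2-fold (adjusted p = 0.00104). Another probe of Cpa3, with 2 healthy mice above background, gave 3.72 (adjusted p = 0.00172). A further probe gave 2.19 and did not pass (adjusted p = 0.0976). Fcer1a, a chain of the IgE receptor, measured 7.46, 7.25, 6.83, 8.0 and 7.12 in day 21 mice and 3.98, 5.22, 4.22 and 5.99 in healthy mice, 2 of which were above background (log2 change 2.48, adjusted p = 0.013). Tpsab1, a tryptase, measured 6.15, 6.91, 5.90, 6.10 and 6.30 in day 21 mice and 3.98, 4.34, 3.04 and 4.78 in healthy mice, 1 of which was above background (log2 change 2.24, adjusted p = 0.012). The day 21 mice were alike in both genes and lay above every healthy mouse. Tpsb2, the second tryptase, was at least 1.11-fold higher (adjusted p = 0.0337). The tryptase and chymase genes are close copies of each other, so their probes may also bind transcripts of related members.

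Cma2, a chymase gene, divided the day 21 mice. It measured 6.84, 6.65, 6.47 and 8.04 in day 21 mice 1 to 4 but 2.48, below background, in mouse 5, and it was at the floor in all healthy mice. The rise was at least 2.67-fold (adjusted p = 0.0161). In day 21 mouse 5 Mcpt1 was also the lowest of its group, whereas Tpsab1 was not. Genes that did not pass the test were Gata2, a transcription factor of mast cells, with a log2 difference of 1.21 and all day 21 mice above all healthy mice (adjusted p = 0.0642), Hdc, the enzyme that makes histamine (1.65, adjusted p = 0.274), and Cma1 (0.44, adjusted p = 0.764). In Hdc, day 21 mouse 3 measured 9.39 and the other day 21 mice 5.50 to 6.30 (log2 signal). Without that mouse the Hdc difference was 0.93 and the median of the mast cell list 1.22. Mcpt2 was not above background on any of the 9 arrays. Without day 21 mice 2 and 3, 4 mast cell genes passed and the median was 1.26, and Tpsab1, Tpsb2 and Cma2 did not pass. Without healthy mouse 3 there were 3. With a floor of 20 there were 4, with a median of 1.21, and Mcpt4, Cma2 and Tpsb2 did not pass.

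**Figure D3:**
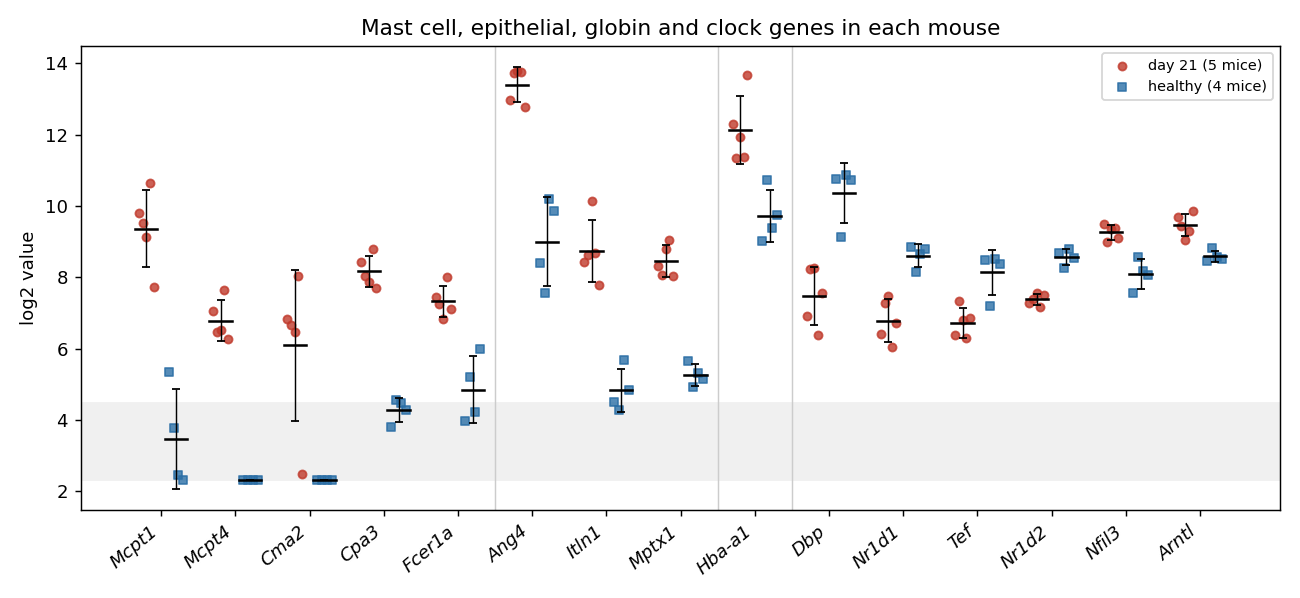
Log2 signal of 15 genes in the 5 day 21 mice (left) and the 4 healthy mice (right), with mean and SD. The grey band runs from the floor of 2.32 to the lowest background level of an array. Mcpt1 lies between 7.73 and 10.65 in day 21 mice and between 2.32 and 5.34 in healthy mice, and Dbp runs the other way.

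Of 17 epithelial lectins and antimicrobial products, 3 were higher on day 21 than in healthy mice and 0 were lower. The list median was 0.10, and 0.371% of all genes were higher. The study also named Ang4 and Reg4 among genes raised in its colitis samples, so that this list is not independent of them either. Ang4, an antimicrobial ribonuclease of goblet and Paneth cells in mice, measured 12.96, 13.72, 13.78, 13.76 and 12.76 log2 signal in day 21 mice and 8.40, 7.55, 10.19 and 9.85 in healthy mice. The day 21 mice lay close together near the top of the array's range, and the healthy mice were more scattered and all lower. The log2 change was 4.40 ± 0.97 (SE, adjusted p = 0.0282), or 21.1-fold. Itln1, the lectin intelectin 1, measured 8.42, 8.63, 10.14, 8.68 and 7.79 in day 21 mice and 4.52, 4.29, 5.68 and 4.84 in healthy mice. Mptx1, a pentraxin of the mouse intestinal mucosa, measured 8.33, 8.07, 8.79, 9.04 and 8.04 in day 21 mice and 5.66, 4.93, 5.31 and 5.14 in healthy mice. Both genes separated the groups fully. The log2 change was 3.90 for Itln1, with 2 of the 4 healthy mice above background (adjusted p = 0.00172), and 3.19, or 9.14-fold, for Mptx1 (adjusted p = 0.00101).

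Retnlb, a goblet cell cytokine, did not pass the test although its group means differed by 2.21 (adjusted p = 0.0546). It measured 13.33, 13.33, 14.24, 13.76 and 12.29 in day 21 mice and 10.56, 10.48, 13.10 and 10.58 in healthy mice, so that healthy mouse 3 lay inside the range of the day 21 mice. The same healthy mouse had the highest Itln1 and Ang4 of its group. Reg4 differed by 1.59 without overlap (adjusted p = 0.112). Reg3b, an antibacterial lectin of inflamed epithelium, measured 9.47 in day 21 mouse 3, the mouse with raised neutrophil markers, and 2.32 to 4.02 in the other day 21 mice. No member of the goblet cell mucus list passed the test in either direction (16 genes, median 0.24), and the same held for the 11 tuft cell genes (median 0.39). Without day 21 mice 2 and 3, 2 of the 17 genes passed, and Ang4 did not (adjusted p = 0.155).

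The lower genes held a large part of the replication machinery. Of 20 genes of origin licensing and firing, 9 were lower on day 21 than in healthy mice and 0 were higher, against 0.450% of all genes lower. The median change of the list was -0.70, and 18 of the 20 changes were negative. In 7 genes all day 21 mice lay below all healthy mice, against 2.81% of all genes. All 6 genes of the Mcm2 to Mcm7 helicase, which is loaded at origins and unwinds DNA at the fork, were among the 9. E2F factors drive replication genes at the start of S phase, and 8-base forms of their site were searched in upstream sequence. Windows are shown for the helicase genes Mcm3, Mcm5, Mcm6 and Mcm7 because these held a match, whereas none was found for Mcm2 or Mcm4. The windows shown run from 250 bases before to 50 bases after the RefSeq start on GRCm38.p6, at chr1:20820263-20820562 (minus strand), chr8:75109259-75109558 (plus strand), chr1:128359656-128359955 (minus strand) and chr5:138171834-138172133 (minus strand). Capitals mark matches to TTTGGCGC, TTTCCCGC or TTTCGCGC on either strand, some of which overlap each other.
Mcm3: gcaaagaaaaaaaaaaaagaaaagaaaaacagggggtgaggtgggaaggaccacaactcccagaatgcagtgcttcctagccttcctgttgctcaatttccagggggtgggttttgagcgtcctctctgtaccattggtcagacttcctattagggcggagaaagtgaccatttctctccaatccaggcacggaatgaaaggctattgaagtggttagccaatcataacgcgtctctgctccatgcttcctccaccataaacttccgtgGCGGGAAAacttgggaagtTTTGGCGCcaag
Mcm5: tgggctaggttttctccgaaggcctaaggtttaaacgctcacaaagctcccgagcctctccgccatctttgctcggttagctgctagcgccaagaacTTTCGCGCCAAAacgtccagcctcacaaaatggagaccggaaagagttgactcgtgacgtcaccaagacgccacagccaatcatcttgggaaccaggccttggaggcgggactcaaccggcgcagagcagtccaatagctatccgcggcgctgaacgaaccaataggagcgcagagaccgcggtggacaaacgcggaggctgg
Mcm6: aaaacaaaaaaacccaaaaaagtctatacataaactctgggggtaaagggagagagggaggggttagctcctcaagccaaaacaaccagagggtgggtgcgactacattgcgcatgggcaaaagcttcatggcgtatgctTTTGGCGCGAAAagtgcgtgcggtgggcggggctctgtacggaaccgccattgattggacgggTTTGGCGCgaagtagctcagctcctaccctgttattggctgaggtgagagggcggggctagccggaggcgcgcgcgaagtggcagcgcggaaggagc
Mcm7: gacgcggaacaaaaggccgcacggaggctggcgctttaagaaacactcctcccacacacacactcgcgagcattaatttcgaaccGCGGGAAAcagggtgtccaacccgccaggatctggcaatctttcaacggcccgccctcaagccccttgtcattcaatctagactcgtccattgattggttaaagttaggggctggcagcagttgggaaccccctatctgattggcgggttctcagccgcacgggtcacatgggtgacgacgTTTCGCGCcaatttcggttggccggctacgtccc
In Mcm3 both matches lay after the start, at 19 and 38 bases, and in Mcm6 all 3 lay before it. Of the 11250 tested genes with a window in the table, 361 (3.21%) held such a match. It was present in 8 of the 17 licensing genes with a window (47.1%) and in 5 of the 8 that were lower on day 21. In the mitosis list 1 of 16 genes (6.25%) held one. A match describes the letters only and does not show that a factor binds.

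Mcm3 measured 5.07, 5.54, 5.83, 6.0 and 4.66 log2 signal in day 21 mice and 7.01, 7.03, 6.56 and 7.43 in healthy mice. Day 21 mouse 5 was the lowest and mouse 4 the highest of the day 21 group, and no day 21 mouse reached the lowest healthy mouse. The change was -1.59 ± 0.32 (SE, adjusted p = 0.013), with the healthy signal 3.01-fold higher. Mcm6 measured 8.75, 8.59, 8.42, 9.22 and 8.6 in day 21 mice and 9.60, 10.14, 9.94 and 10.22 in healthy mice (-1.26, adjusted p = 0.00172), and another probe of the gene gave -1.21 (adjusted p = 0.00239). Mcm5 measured 9.54, 9.61, 9.33, 10 and 9.15 in day 21 mice and 10.30, 10.77, 10.61 and 10.82 in healthy mice (-1.10, adjusted p = 0.00611). In these genes, too, day 21 mouse 4 came nearest to the healthy mice, and healthy mouse 1 was the lowest or next to lowest of its group.

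The other helicase genes fell by 1.31 (Mcm7, adjusted p = 0.0327), 0.88 (Mcm2, adjusted p = 0.0236) and 0.70 (Mcm4, adjusted p = 0.00789). Mcm10, Cdc6 and Cdc45, which load or activate the helicase, fell by 1.09, 0.99 and 1.03. In these 3 genes and in Mcm4, day 21 mouse 4 lay just above healthy mouse 1, and no other pair of mice overlapped. Another probe of Mcm10 gave -1.12 and did not pass (adjusted p = 0.162). Cdt1, the loading factor that works with Cdc6, differed by -0.77 and did not pass (adjusted p = 0.056). E2f1, one of the E2F factors, measured 7.42, 7.26, 6.98, 7.90 and 7.20 in day 21 mice and 7.93, 8.42, 8.60 and 8.73 in healthy mice, and fell by 1.07 without overlap (adjusted p = 0.00314).

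At the replication fork, 6 of 29 genes were lower, against 0.450% of all genes, 0 were higher, and the median change was -0.60. There was no overlap downward in 12 of the genes, against 2.81% of all genes. Timeless, part of the fork protection complex, measured 6.82, 6.66, 6.27, 7.25 and 6.29 in day 21 mice and 7.37, 7.87, 7.68 and 8.09 in healthy mice (-1.10, adjusted p = 0.00314). Its partner Tipin fell by 0.69, but another probe of Tipin, above background on all 9 arrays, gave -0.17 (adjusted p = 0.817). Pold1, the catalytic subunit of DNA polymerase delta, fell by 0.85 (adjusted p = 0.00195), Chaf1b, which places histones on new DNA, by 0.98 (adjusted p = 0.00317), Uhrf1, which maintains DNA methylation, by 1.03, and Rfc1, the clamp loader subunit, by 0.42. Further lower genes outside these lists were Clspn and Brip1, which act at stalled forks and in repair, Tcf19, and Zwilch, a kinetochore checkpoint protein, with changes of -1.08, -1.14, -1.09 and -1.50. Of 3 other probes of Clspn, 1 passed (-1.09, adjusted p = 0.0489) and the others gave -0.53 and -0.44 (adjusted p = 0.659 and 0.702). Other probes of Zwilch, above background on only part of the arrays, gave -0.58 and 0.20 (adjusted p = 0.768 and 0.954). The call of Zwilch was lost in 14 of 22 settings. Clspn, Brip1 and Zwilch did not pass without day 21 mice 2 and 3 (adjusted p = 0.192, 0.161 and 0.354). Pcna, the sliding clamp, differed by -0.38 with overlap (adjusted p = 0.641), and Rrm2, the nucleotide reductase subunit, by -0.75 (adjusted p = 0.18).

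Mitotic genes did not follow the licensing genes at the level of single calls. Of 21 genes of mitosis, 0 passed the test in either direction and 0 separated the groups, with a median change of -0.18 and 19 negative changes. Cdk1, the mitotic kinase, differed by -0.08, Birc5, a passenger protein of the chromosomes, by 0.04, and Cenpa, the centromeric histone, by 0.11. Top2a, the topoisomerase that untangles chromosomes, differed by -0.48. Whether the licensing and the mitosis lists differed from each other was not tested. In single mice the licensing list lay at -0.78, -0.64, -0.94, -0.36 and -1.02 in day 21 mice 1 to 5 and at -0.29, 0.06, 0.06 and 0.11 in healthy mice 1 to 4 (list median, log2, minus the healthy mean of each gene). The count of 9 licensing genes was 4 without day 21 mouse 3, without day 21 mouse 5, without healthy mouse 2 or without healthy mouse 3, and 2 without healthy mouse 4. Without day 21 mice 2 and 3 it was 3, with a list median of -0.71, and without mice 2, 3 and 5 it was 0, with a median of -0.48. The fork list had 3 of its 6 calls without day 21 mouse 5 or without healthy mouse 2, 3 or 4, 2 without day 21 mice 2 and 3 (median -0.63), and 0 without mice 2, 3 and 5 (median -0.49). Without mice 2 and 3, E2f1, Mcm5 and Timeless were among the genes that did not pass (adjusted p = 0.0568, 0.0521 and 0.0521).

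**Figure D4:**
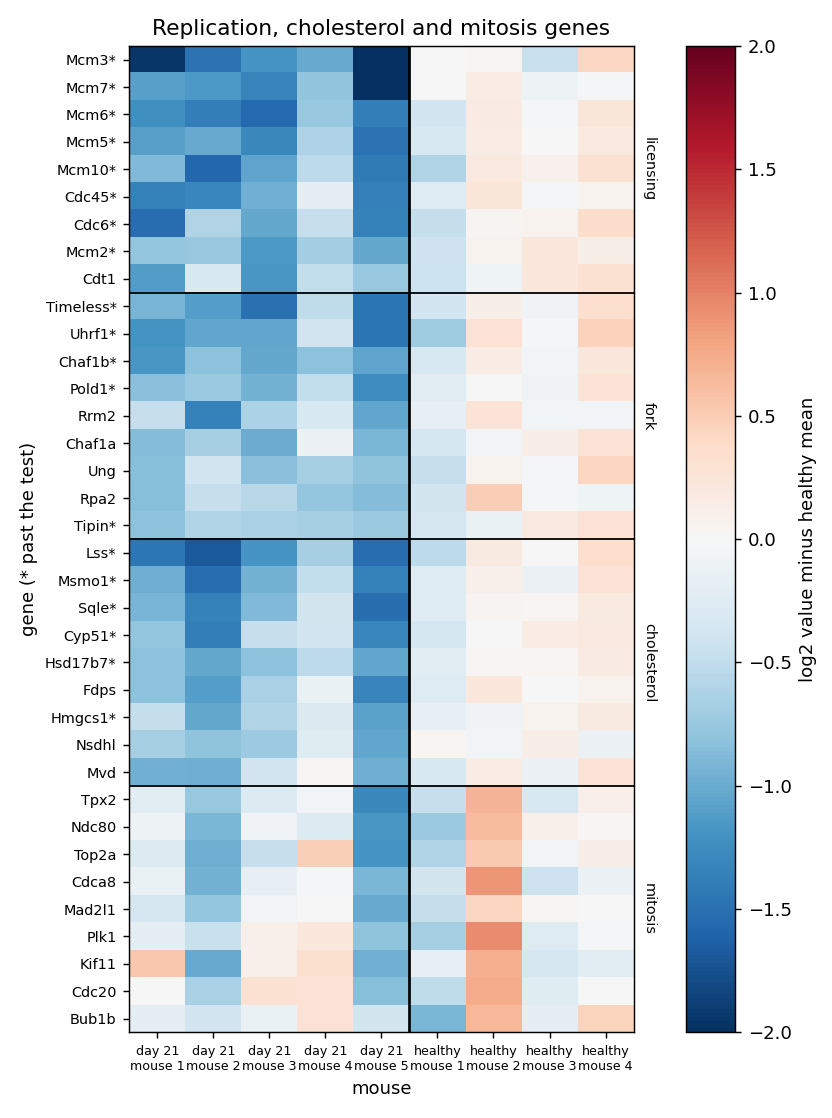
Log2 signal minus the healthy mean of each gene in the 5 day 21 mice (left) and the 4 healthy mice (right), for the 9 genes with the lowest change, among those above background on all 9 arrays, of the licensing, fork, cholesterol and mitosis lists. Colours are clipped at 2 log2 units, an asterisk marks genes past the test, and no mitosis gene carries one.

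Cholesterol synthesis was the metabolic pathway with the most lower genes. Of 18 genes of synthesis and uptake, 7 were lower on day 21, against 0.450% of all genes, and 0 were higher. There was no overlap downward in 9 of them, against 2.81% of all genes, and the median change was -0.67. Hmgcs1, which makes the substrate of the rate-limiting reductase, is shown with its upstream window on GRCm38.p6 at chr13:119690101-119690400 (plus strand, RefSeq), because it was the only one of the 5 lower genes with a window that held the sterol response letters TCACCCCA, in capitals here.
Hmgcs1: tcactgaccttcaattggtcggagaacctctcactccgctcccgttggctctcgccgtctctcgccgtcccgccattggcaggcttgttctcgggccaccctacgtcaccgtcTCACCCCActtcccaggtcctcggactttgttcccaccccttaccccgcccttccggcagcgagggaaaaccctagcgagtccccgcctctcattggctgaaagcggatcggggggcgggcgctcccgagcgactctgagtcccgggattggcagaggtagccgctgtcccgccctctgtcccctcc
The match lay before the start. These letters, searched on both strands, stood in 2 of the 15 list members with a window (13.3%) and in 205 of all 11250 windows (1.82%).

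Hmgcs1 was among the brightest genes on the array and measured 13.45, 12.91, 13.32, 13.64 and 12.85 log2 signal in day 21 mice and 13.76, 13.85, 14.00 and 14.11 in healthy mice (-0.70, adjusted p = 0.026). Lss, the synthase that closes the sterol ring, measured 7.92, 7.68, 8.19, 8.71 and 7.84 in day 21 mice and 8.85, 9.54, 9.36 and 9.71 in healthy mice (-1.30 ± 0.21 SE, adjusted p = 0.00172). Sqle, the squalene epoxidase, measured 10.86, 10.44, 10.90, 11.41 and 10.27 in day 21 mice and 11.52, 11.84, 11.82 and 11.97 in healthy mice (-1.01, adjusted p = 0.013). No day 21 mouse overlapped a healthy mouse in these 3 genes, and day 21 mouse 4 was again the highest of its group. A second probe of Sqle gave -1.20 (adjusted p = 0.0162).

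Hsd17b7, an enzyme of late sterol synthesis, measured 9.36, 9.16, 9.36, 9.66 and 9.14 in day 21 mice and 9.95, 10.21, 10.22 and 10.34 in healthy mice, with a small and tight change of -0.84 ± 0.12 (SE, adjusted p = 0.00101). Msmo1 and Cyp51, which remove methyl groups from the sterol ring, fell by 1.06 (adjusted p = 0.00195) and 0.86 (adjusted p = 0.043). Stard4, a sterol carrier, fell by 0.54. Idi1 and Fdps, earlier enzymes of the pathway, differed by -1.14 and -0.80 and did not pass (adjusted p = 0.0848 and 0.0883). Srebf2, the transcription factor of the pathway, differed by 0.07 with overlap (adjusted p = 0.937). The count of 7 was 4 without day 21 mouse 2, without day 21 mouse 5, without healthy mouse 2 or without healthy mouse 3, and 3 without healthy mouse 4. Without day 21 mice 2 and 3 it was 3, and without mice 2, 3 and 5 it was 0, with medians of -0.63 and -0.46. Hmgcs1 and Sqle were among the genes that did not pass without mice 2 and 3 (adjusted p = 0.162 and 0.091).

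Nr1h4 and Slc5a1 fell by small amounts with little spread. Nr1h4, the bile acid receptor FXR, measured 10.13, 10, 9.85, 10.17 and 10.09 in day 21 mice and 10.76, 10.79, 10.85 and 10.70 in healthy mice (-0.72, adjusted p = 0.0236). It was the only one of 9 genes of sterol and bile acid export to pass. Its call was lost in 8 of 22 settings, among them without day 21 mouse 2 (adjusted p = 0.0526) or mouse 3 (0.0627), without both (0.168), and without healthy mouse 2, 3 or 4 (0.0625, 0.0733 and 0.0618). Slc5a1, the sodium and glucose cotransporter, measured 8.46, 8.33, 8.41, 8.59 and 8.46 in day 21 mice and 9.09, 9.18, 9.21 and 9.11 in healthy mice (-0.70 ± 0.11 SE, adjusted p = 0.00172). In both genes the mice of a group lay close together and the groups were clearly apart. Slc5a1 was the only call among 12 small intestinal enterocyte genes (median -0.03). None of 21 genes of colonocyte ion and water transport passed the test (median -0.09). Hspd1, the mitochondrial chaperone, fell by 0.62 (adjusted p = 0.0337), the only call among 20 heat shock and chaperone genes, and it did not pass without day 21 mice 2 and 3 (adjusted p = 0.222).

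Circadian clock genes changed in both directions. Of 16 tested, 4 were lower and 1 was higher on day 21, against 0.450% and 0.371% of all genes. The list median was -0.13. Dbp, a clock output factor that acts through D-box sites, measured 6.92, 8.24, 8.25, 6.39 and 7.57 log2 signal in day 21 mice and 10.76, 9.12, 10.87 and 10.72 in healthy mice. Healthy mouse 2 lay well below the other healthy mice but above every day 21 mouse. The change was -2.89 ± 0.60 (SE, adjusted p = 0.0188), with the healthy signal 7.42-fold higher. Nr1d1, the repressor REV-ERB alpha, measured 6.40, 7.29, 7.48, 6.04 and 6.71 in day 21 mice and 8.85, 8.14, 8.66 and 8.78 in healthy mice (-1.82, adjusted p = 0.0377). Day 21 mice 1 and 4 were the lowest and healthy mouse 2 was the lowest of the healthy group in both genes. Another probe of Nr1d1 gave -2.02 and did not pass (adjusted p = 0.103).

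The related repressor Nr1d2 measured 7.28, 7.39, 7.56, 7.18 and 7.51 in day 21 mice and 8.69, 8.27, 8.78 and 8.55 in healthy mice (-1.19, adjusted p = 0.013). Tef, a further D-box factor, measured 6.37, 7.33, 6.80, 6.29 and 6.85 in day 21 mice and 8.49, 7.19, 8.50 and 8.38 in healthy mice (-1.41, adjusted p = 0.0177), and here healthy mouse 2 lay inside the range of the day 21 mice. Nfil3, a repressor that competes for D-box sites, ran the other way and measured 9.49, 9.00, 9.34, 9.38 and 9.09 in day 21 mice and 7.55, 8.58, 8.19 and 8.07 in healthy mice (1.17, adjusted p = 0.021). Healthy mouse 2 was thus nearest to the day 21 mice in all of these genes. The positive clock factors Arntl and Clock differed by 0.87 and 0.35 and did not pass (adjusted p = 0.0832 and 0.129), nor did Per2 (-0.47, adjusted p = 0.624). Without healthy mouse 3 or without healthy mouse 4, no clock gene passed. Without day 21 mice 2 and 3, 3 were lower, and Nr1d2 and Nfil3 did not pass (adjusted p = 0.0521 and 0.071). The time of day at which the colons were taken is not given in the sources used here, and its part in these values was not tested.

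Genes of red cells, of pancreas and of acute activation made up a part of the remaining rises. Hba-a1, a chain of haemoglobin, measured 12.29, 11.33, 11.92, 11.38 and 13.67 in day 21 mice and 9.01, 10.72, 9.38 and 9.75 in healthy mice (2.40, adjusted p = 0.0235). Day 21 mouse 5 was the highest, and without it the change was 2.01 and did not pass (adjusted p = 0.0703). Alas2, the haem enzyme of red cell precursors, was at the floor in all healthy mice and at least 1.44-fold higher on day 21. The adjusted p of 0.0369 (limma) is that of its floored log2 change of 2.88, and Alas2 did not pass with a floor of 20. Hba-a1 and Alas2 were the 2 calls among 8 erythroid genes, against 0.371% of all genes higher. This list was drawn up after values had been seen. No erythroid gene passed without day 21 mouse 5, healthy mouse 1, healthy mouse 3 or healthy mouse 4, and 1 passed without day 21 mouse 1 or mouse 3. The copies of the haemoglobin alpha gene are near-identical, so the probe may read both.

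Pnliprp2, a lipase related to the pancreatic one, was the only one of 13 exocrine pancreas genes to pass. It measured 8.22, 11.17, 10.66, 9.88 and 9.70 in day 21 mice and 6.16, 6.0, 6.19 and 5.39 in healthy mice (3.99, adjusted p = 0.036). Mice 2 and 3, which carried the pancreatic signal, were the highest, and the other 3 day 21 mice also lay above all healthy mice. In those 3 mice trypsin 4 stood at the floor. The source of the Pnliprp2 signal was not tested. Without mice 2 and 3 the difference was 3.33 and did not pass (adjusted p = 0.268). Clps, the colipase, had the same shape at 10.73, 14.54, 12.59, 11.32 and 11.39 in day 21 mice and 9.12, 8.57, 9.32 and 9.27 in healthy mice (3.05, adjusted p = 0.053).

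Of 20 immediate early genes, 2 were higher, against 0.371% of all genes, 19 of the differences were positive and the median was 0.50. Egr1, a transcription factor of this class, measured 12.11, 10.83, 11.61, 12.55 and 11.31 in day 21 mice and 10.13, 11.14, 9.92 and 9.81 in healthy mice (1.43, adjusted p = 0.043). Day 21 mouse 2 lay below healthy mouse 2, so the groups overlapped. The other call was Klf2 (0.61, adjusted p = 0.0387), and neither passed when any of day 21 mice 1, 3, 4 and 5 or healthy mice 1, 3 and 4 was left out. Without day 21 mice 2 and 3 together, Egr1 passed (adjusted p = 0.0493) and Klf2 did not (adjusted p = 0.128). Ccn1, a matrix protein induced by growth factors, measured 6.95, 7.15, 6.73, 8.31 and 7.36 in day 21 mice and 5.08, 5.59, 4.99 and 3.99 in healthy mice (2.39, adjusted p = 0.00172), and its other probes gave 2.76 and 2.73. Bdnf, a neurotrophin, was at the floor in all healthy mice and at least 1.13-fold higher on day 21. The adjusted p of 0.0382 (limma) is that of its floored log2 change of 2.53, and Bdnf did not pass with a floor of 20. Another probe of Bdnf gave 1.22 and did not pass (adjusted p = 0.254), nor did Bdnf pass without day 21 mice 2 and 3 (adjusted p = 0.2).

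Among 51 replication-dependent histone genes, a list also drawn up after values had been seen, 3 were higher and 0 were lower. Over all genes 0.371% were higher. There was no overlap upward in 10 of the histone genes, against 2.78% of all genes, and the list median was 0.05. H4c18 measured 7.55, 8.10, 7.71, 7.41 and 8.81 in day 21 mice and 6.65, 6.77, 7.02 and 6.60 in healthy mice (1.16, adjusted p = 0.00611). H4c12 measured 7.46, 8.41, 7.68, 7.89 and 9.06 in day 21 mice and 7.19, 7.03, 7.26 and 6.85 in healthy mice (1.02, adjusted p = 0.0283). Day 21 mouse 5 was the highest in both genes, and this mouse had the lowest median of the licensing list. H3c6 was the third call (0.65, adjusted p = 0.0365). The count was 1 without day 21 mouse 2, day 21 mouse 5 or healthy mouse 2, 3 or 4, and 0 without day 21 mice 2, 3 and 5 together. Histone genes are near-identical in their coding parts, so their probes may read several copies.

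Many immune and stromal lists held no gene past the test. Among collagens and other matrix genes 24 of 27 differences were positive, with a median of 0.41, and 0 passed. In 8 of these genes all day 21 mice lay above all healthy mice, against 2.78% of all genes. Col1a1, the main fibrillar collagen, measured 9.21, 9.56, 10.69, 9.21 and 9.31 in day 21 mice and 8.48, 8.89, 8.79 and 8.69 in healthy mice (0.88, adjusted p = 0.1), with day 21 mouse 3 well above the rest. All 16 B cell genes had a negative difference, with a median of -0.89 that was -0.45 without day 21 mouse 5 and -0.49 without healthy mouse 4. Of 23 interferon response genes, 22 had a negative difference, with a median of -0.40 that was 0.05 without day 21 mice 2, 3 and 5. The 12 MHC class II genes had a median of -0.43, and this lay at 0.01, -1.09, -0.16, 0.51 and -1.64 in day 21 mice 1 to 5, so that mice 2 and 5 were the lowest. Neutrophil genes had a median of 0.47 over 11 genes with 0 calls, and their raised level was that of day 21 mouse 3. No gene of the lists of inflammatory cytokines (21 genes), chemokines (34 genes), T cells (19 genes) or macrophages (14 genes) passed.

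Changes against the same 4 healthy mice were also computed for the other TNBS days, so these values are not independent of each other. The licensing list had a median change of -0.17, -0.30, -0.13, -0.70, -0.26 and -0.24 on days 9, 14, 16, 21, 23 and 28. On the same days the cholesterol list had -0.33, -0.35, -0.09, -0.67, -0.31 and -0.12, and the mast cell list 0.22, 1.28, 2.0, 1.65, 2.66 and 1.92.

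**Figure D5:**
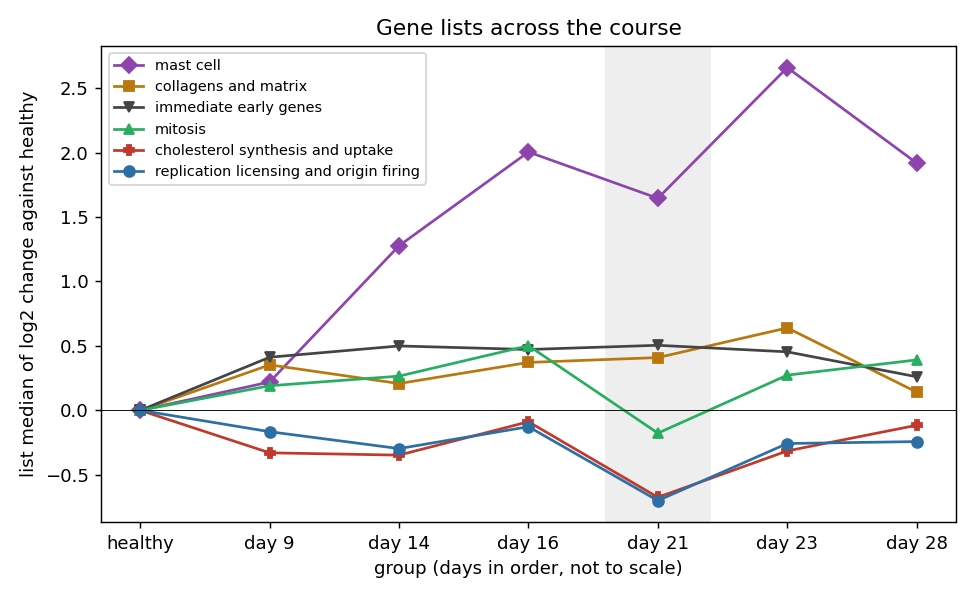
Median log2 change against healthy mice of 6 gene lists, with healthy mice at 0 and the 6 TNBS days to their right, from day 9 to day 28 (axis not to scale in time, day 21 shaded). All days share the same 4 healthy mice. The licensing list is lowest on day 21 at -0.70, and the mast cell list is highest on day 23 at 2.66.

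Direct contrasts between days do not use the healthy means, although the healthy arrays enter the shared estimate of spread. Between day 21 and day 14, each 7 days after a dose, limma called 0 of 14010 genes (0%) and 0 probes, with 1456 probes at an unadjusted p under 0.05 and a smallest adjusted p of 0.225. Between day 21 and day 16, which follow the same dose by 7 and 2 days, 88 genes were higher on day 21 (0.628%) and 114 were lower (0.814%). Between day 21 and day 28, 21 genes were higher on day 21 (0.150%) and 25 were lower (0.178%). Single mice weighed on these counts: of 255 probes that differed from day 16, 26 remained without day 21 mouse 5 and 37 without day 16 mouse 2, and of 65 that differed from day 28, 4 remained without day 21 mouse 5 and 3 without day 28 mouse 1.

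Compared with day 16, day 21 mice had lower levels of Arg1, Pla2g4c, Chil1 and Mfsd2a and of members of the replication and cholesterol lists. Arg1, the arginase of activated macrophages, measured 2.57, 2.32, 6.03, 3.52 and 2.32 log2 signal in day 21 mice and 7.20, 7.59, 9.60, 8.36 and 8.91 in day 16 mice (-4.98, adjusted p = 0.00522). Only day 21 mouse 3 was above background, and every day 16 mouse was above it. Pla2g4c, a phospholipase, averaged 4.07 on day 21, with 2 of 5 mice above background, and 10.73 on day 16, with all 5 above it (-6.66, adjusted p = 0.0225). Chil1, a chitinase-like protein of inflammation, differed by -2.79 and Mfsd2a, a lipid transporter, by -2.60. Slc30a10, a manganese exporter, averaged 7.82 on day 21 and 4.14 on day 16, when 2 of 5 mice were above background (3.68, adjusted p = 0.0388), and its healthy mean was 7.35. The size of the difference in Arg1, Pla2g4c and Slc30a10 rests in part on values in the background. Of the licensing list, 8 of 20 genes were lower on day 21 than on day 16, with a list median of -0.75. So were 8 of 29 fork genes (-0.51) and 7 of 18 cholesterol genes (-0.58), against 0.814% of all genes. These list counts are given with all mice only. Mcm4 differed by -0.78 (adjusted p = 0.00236), Rrm2 by -1.22, Cdc45 by -1.10, Lss by -0.86 and Fdps by -0.91.

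Against day 28, 4 of 18 cholesterol genes were lower on day 21, namely Lss (-0.98), Cyp51 (-0.97), Msmo1 (-0.89) and Hsd17b7 (-0.66). So was 1 of 20 licensing genes, Mcm4, against 0.178% of all genes lower. These counts, too, are given with all mice only. Cma2 averaged 6.10 on day 21 and 9.31 on day 28 (-3.21), with the low value of day 21 mouse 5 in the mean. Angptl4, an inhibitor of lipoprotein lipase, measured 7.73, 6.66, 8.79, 5.61 and 7.83 in day 21 mice and 4.70, 4.72, 4.82, 5.53 and 4.53 in day 28 mice (2.47, adjusted p = 0.0151). Its day 21 mice were widely spread but all lay above every day 28 mouse. Bst2, an interferon-induced antiviral protein, measured 6.38, 6.16, 5.82, 6.01 and 6.52 in day 21 mice and 7.76, 7.40, 7.93, 7.48 and 7.74 in day 28 mice (-1.49, adjusted p = 0.0271). In healthy mice Bst2 measured 6.91, 7.15, 7.30 and 7.07, above every day 21 mouse, but that comparison did not pass (-0.93, adjusted p = 0.178).

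A fit of the day 21 and healthy arrays alone called 0 licensing genes, 1 fork gene, 1 cholesterol gene and 1 lower clock gene, and 0 immediate early, erythroid and histone genes. It called 4 mast cell genes, 3 lectins and antimicrobial products and 1 exocrine pancreas gene, all higher. Of 57 changed genes examined under 21 or 22 settings each, 3 (Mcpt1, Cpa3 and Mptx1) kept their call throughout, 54 lost it under at least 1, and 0 changed direction.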

How the data were processed

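RNA of the distal colon was measured on 1-colour bead arrays, and groups and mouse numbers were taken from the labels. By their methods, the authors removed the background signal from each probe, applied quantile normalization between arrays in GeneSpring, raised low values to 5 and used limma. The authors deposited normalized values for all probes, which are on a log2 scale as judged from their range, since the table does not state the base. The labels and the methods differ in the RNA clean-up columns they name. A further table of signals and detection p-values, in 68 columns named by chip position, is not paired with mice and was not used. A quantile normalized array gives relative levels only, and arrays carry no depth, so their number limits the precision.

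Values were floored at log2 of 5, and a probe was tested if it exceeded this floor on at least 4 arrays. All 34 arrays were fitted in 7 groups (R 4.3.3, limma 3.58.1, lmFit and eBayes, 27 residual degrees of freedom), with Benjamini-Hochberg adjustment over all tested probes and a threshold of 0.05. The script was tested on simulated data. For 3899 genes with several probes the probe with the highest mean was used. The platform annotation gave 23978 probes 1 symbol and 1719 none, and 23962 probes matched the RefSeq gene table. Background on an array was the 95th percentile of 1324 chemosensory receptor probes (22.3 to 30.5 on the linear scale). For a gene not above it in any mouse of a group, the fold is a lower bound against the lowest signal above background. The adjusted p given beside such a bound is that of the floored log2 change, and the bound itself was not tested.

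Genes were named by rule: the 15 largest changes per direction among called genes without overlap, called members of 54 lists with a few uncalled examples, the 6 largest changes per direction against days 14, 16 and 28, and the genes of largest spread. Ccn1, Bdnf and other genes outside lists entered by the first part of this rule. The groups, lists and members were chosen with earlier results of these data known, and 2 lists, erythroid genes and replication-dependent histones, were added after values had been seen. The mice were taken as separate animals, 1 array each. The alternatives were other floors, filters and eBayes settings, a pairwise fit, the mouse number as a block, and leaving out mice.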

Additional observations from a re-analysis of the deposited data

Results flagged for a closer look

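Single mice lay far from the rest of their group in 21 of 296 groups of values examined by Dixon's test. Chance marks about 1 of 20 groups, but that rate does not apply directly here, since genes of large spread were among those examined and several marks are values at or near the floor. Day 21 mouse 3 was marked most often. Its high values were Col1a1 at 10.69 (others 9.21 to 9.56), Col3a1 at 10.74 (9.91 to 10.11) and Lox at 9.11 (6.80 to 7.43). Reg3b at 9.47 (2.32 to 4.02) and Hdc at 9.39 (5.50 to 6.30) were also high in this mouse. Rfc1 was low in it at 8.46 (8.73 to 8.82). The neutrophil list of this mouse lay 2.97 above the healthy mean, and the part of these cells in the values was not tested. Day 21 mouse 5 was marked for the skeletal muscle genes Acta1 at 12.14 (6.77 to 7.81), Mylpf at 10.38 (2.32 to 3.26) and Myh4 at 7.17 (all others 2.32), and for a low Cma2 at 2.48 (6.47 to 8.04). Day 21 mouse 2 was marked for Trmt44 at 3.26, below background.

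Among healthy mice, mouse 2 was marked for Dbp at 9.12 (others 10.72 to 10.87), Tef at 7.19 (8.38 to 8.50) and Cxcl9 at 9.90 (7.60 to 7.97), and mouse 3 for Retnlb at 13.10 (10.48 to 10.58). Mouse 4 was marked for a low Chrne at 2.32 (5.35 to 5.72). The remaining marks were at or below background: Adam34l at 2.43, Ctrb1 at 2.82 and Mcpt2 at 3.32 in healthy mouse 3, Reg1 at 4.22 in healthy mouse 4 and Tpsb2 at 3.21 in healthy mouse 1.

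Direct contrasts between days marked genes whose level on day 21 differed from another TNBS day. Against day 16 the log2 differences of day 21 were 3.68 for Slc30a10, 2.69 for Serpina9, 2.31 for Hamp2, 2.08 for Cplx2, 2.03 for Tmem171 and 1.77 for Adam34l. They were -6.66 for Pla2g4c, -4.98 for Arg1, -3.05 for Ly6f, -2.79 for Chil1, -2.73 for Creb3l3 and -2.60 for Mfsd2a. Against day 28 they were 2.71 for Ces1f, 2.47 for Angptl4, 1.60 for Ces1d, 1.05 for Fbxo32, 0.98 for Grb7 and 0.89 for Klhl24. They were -3.21 for Cma2, -2.29 for Trmt44, -2.13 for Mfsd2a, -1.83 for Slc29a4, -1.82 for Kdm5d and -1.49 for Bst2. Ly6f, Creb3l3, Trmt44 and Kdm5d were at or below background in the day 21 mice. Pla2g4c was above background in 2 of 5 day 21 mice and Slc30a10 in 2 of 5 day 16 mice, so the sizes of their differences rest in part on background values.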

How the results depend on the processing

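The main counts were 69 probes higher and 79 lower on day 21 than in healthy mice, and 0, 255 and 65 probes that differed from days 14, 16 and 28. No count could change direction, and of the 57 called genes examined 0 did. Leaving out 1 mouse gave 19 to 78 higher, 21 to 94 lower, and 0 to 3, 26 to 366 and 3 to 258 against those days. The higher and lower counts were 39 and 39 without day 21 mouse 2, 40 and 42 without mouse 3, 36 and 36 without mouse 5, 36 and 33 without healthy mouse 2, 24 and 28 without healthy mouse 3, and 19 and 21 without healthy mouse 4. Against day 16 the count was 65, 90 and 26 without day 21 mice 1, 2 and 5 and 152, 37, 121 and 95 without day 16 mice 1, 2, 4 and 5. Against day 28 it was 13, 22, 42, 258 and 4 without day 21 mice 1 to 5 and 3, 31, 35 and 11 without day 28 mice 1, 2, 3 and 5. Against day 14 it was 1 without day 21 mouse 5, day 14 mouse 1 or day 14 mouse 5 and 3 without day 14 mouse 4. Mouse numbers did not pair the groups (correlation of deviations 0.028, -0.031, -0.006 and 0.022 for numbers 1 to 4), and with the number as a replicate block 38 were higher and 41 lower, with 33 against day 28. The pairwise fit gave 26 and 14, with 2 against day 14 and 7 against day 28. A trended and robust eBayes gave 126 and 139, with 457 against day 16 and 199 against day 28, and array weights 137 and 158, with 662 and 333. Adjustment over all 6 days together gave 140 and 142. A floor of 20 gave 1 against day 14, 383 against day 16 and 128 against day 28. Testing all probes gave 111 against day 28, probes above background on 4 arrays 113 higher, 419 against day 16 and 168 against day 28, and the mean of a gene's probes 42 against day 28. The following omissions were added after the data had been seen. Without day 21 mice 2 and 3 the counts were 25 and 15, with 112 against day 16 and 14 against day 28, and without mice 2, 3 and 5 they were 20 and 1, with 1, 15 and 1 against days 14, 16 and 28. The cause of these shifts was not tested. Signals under 22.3 to 30.5 on the linear scale lay in the background and carry no order.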
